A study of Mus musculus with 25 samples.

Results

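The late step of liver regeneration was followed between 36 and 72 hours after 2/3 partial hepatectomy (PHx), the removal of most of the liver, after which the remaining lobes grow back. The step holds 10 of the 25 arrays of the study, 5 labelled PHx 72 Hrs and 5 labelled PHx 36 Hrs, chosen by these titles alone. All mice were male Balb/c, 8 weeks old by the labels, with no genetic change or drug named for either group, and total RNA of whole liver was labelled with Cy3 and hybridised to a single-colour array with probes for mRNAs and putative long noncoding RNAs (lncRNAs). Livers of 5 mice at 12 hours, 5 at 4 hours and 5 sham operated mice gave the context, and the sham livers were taken 4 hours after surgery. Whole liver holds hepatocytes and other cells, so that fewer cells of a type and less RNA per cell cannot be told apart in any value below.

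After PHx, hepatocytes leave their resting state and enter the cell cycle in near synchrony. In the G1 and S phases the cell makes the machinery that licenses replication origins, copies DNA and packs the new DNA into chromatin, largely under control of E2F transcription factors. In G2 and mitosis another set of genes is made, for cyclin B and its kinase Cdk1, the spindle and the kinetochores, largely through promoters with a cell cycle homology region (CHR) and CCAAT boxes. While the liver regrows, the expression of many genes of hepatocyte metabolism is lowered.

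Between the 5 arrays at 72 h and the 5 at 36 h, 1933 of 35979 probes (5.37%) were higher at 72 h and 1634 (4.54%) were lower, with an adjusted p under 0.05 in limma's moderated test on log2 intensity, adjusted by Benjamini-Hochberg over all probes. A difference of at least 2-fold was found for 132 of the higher and 224 of the lower probes, and the median difference over all probes was -0.01 on the log2 scale. Log2 intensities of single arrays correlated with r of 0.990 to 0.995 among 72 h arrays, 0.988 to 0.996 among 36 h arrays and 0.983 to 0.991 between the times, across probes, which are not independent replicates. A mean below a log2 intensity of 6.09, the dimmest 30% of all values, was taken as near background, and a difference from it as a lower bound. Gene names were at hand for a part of the probes only, those which the study had sorted into expression clusters 1 to 4 with these very measurements, and how many of them moved is therefore no separate line of evidence. The list of these probes was at hand only in part, with clusters 1 to 3 and 285 probes of cluster 4, and its 2119 further rows were not used here, so that every count or order of named genes and lncRNAs holds for this part alone. The probes at hand hold 489 of the 1634 lower probes and 181 of the 1933 higher ones. They number 1943, a pool richer in called probes than the background over all probes given below, and every gene list was drawn from it.

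The hepatocyte markers F2, F9, Crp, Cyp2c50 and Cpt1a were bright at both times. Their mean log2 intensity per array was 13.48 to 13.79 at 72 h and 13.42 to 13.76 at 36 h. Of the 5, Cpt1a rose by 0.57 and Crp fell by 0.69 (background 5.37% higher and 4.54% lower). All 5 were called below sham at 72 h (background 13.1% lower). Markers of endothelial cells (4 genes), macrophages (2), lymphocytes (2) and the 1 cholangiocyte marker had no member called, and no gene of these lists had a mean near background at either time. Their mean log2 intensity per array was 8.00 to 8.30 at 72 h and 7.91 to 8.16 at 36 h for the endothelial list, 7.56 to 7.78 and 7.15 to 7.70 for macrophages, and 6.79 to 7.08 and 6.68 to 7.04 for lymphocytes, in each pair with 72 h first. The cholangiocyte gene Anxa4 had 9.72 to 10.18 at 72 h and 9.44 to 9.80 at 36 h. Prtn3, made in neutrophil precursors, varied widely among mice, with log2 intensities of 8.22, 12.43, 12.23, 10.45 and 10.84 at 72 h against 10.64, 9.70, 9.28, 9.06 and 10.77 at 36 h, and was not called (difference 0.94 ± 0.55 SE, limma adjusted p = 0.367). It is a single gene, so the share of such cells cannot be read from it.

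The genes that license and fire replication origins fell together. Of 15 measured, 12 fell and none rose (background 4.54% lower and 5.37% higher), with a median difference of -1.29 on the log2 scale, against -0.01 over all probes. Mcm2, a subunit of the MCM helicase that unwinds DNA ahead of the fork, had log2 intensities of 9.33, 8.88, 8.96, 9.64 and 9.52 at 72 h, against 11.17, 11.33, 11.33, 10.86 and 11.03 at 36 h. All 5 arrays at 72 h lay below all 5 at 36 h, and the difference was -1.88 ± 0.12 (SE), a 3.67-fold fall (limma, adjusted p = 3.03e-10). Mcm4 fell most in the list, with 9.71, 8.86, 9.25, 9.51 and 9.34 at 72 h against 11.34, 11.41, 11.72, 11.59 and 11.29 at 36 h (difference -2.14 ± 0.13 SE, limma adjusted p = 1.85e-10). The other subunits of the ring fell by nearly as much, and on none of their probes did the groups overlap: the differences were -1.80 for Mcm3, -1.76 for Mcm5, -1.68 for Mcm6 and -1.65 for Mcm7 on the log2 scale. Cdt1, which loads the ring onto origins, fell to a mean of 9.06 ± 0.27 at 72 h, against 10.98 ± 0.42 at 36 h (SD, n = 5 each). The 3 genes of the list that were not called were Gins2, a subunit of the active helicase (-0.48, limma adjusted p = 0.0753), Orc5 of the origin recognition complex (-0.20, limma adjusted p = 0.154) and Dbf4, the activator of the Cdc7 kinase (-0.16, limma adjusted p = 0.654).

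DNA synthesis genes moved the same way, with 14 of 16 lower, none higher (background 4.54% lower and 5.37% higher) and a median of -1.24. Pole2, a subunit of the leading strand polymerase epsilon, had log2 intensities of 8.65, 8.81, 8.61, 8.79 and 8.85 at 72 h, against 10.64, 11.03, 10.81, 10.20 and 10.49 at 36 h (difference -1.89 ± 0.11 SE, limma adjusted p = 1.45e-10). Pola1, the catalytic subunit of the polymerase that starts new strands, averaged 8.29 ± 0.06 at 72 h and 9.70 ± 0.30 at 36 h (SD, n = 5 each). Pold1 and Pold3, subunits of the lagging strand polymerase delta, fell by 1.26 and 0.85, and Rpa2, which coats single-stranded DNA, fell by 1.49. The catalytic subunit of polymerase epsilon, Pole, differed by -0.23 (limma adjusted p = 0.522) and the nuclease Dna2 by -0.31 (limma adjusted p = 0.0568). Of the 3 measured genes of deoxynucleotide supply, Rrm1 of ribonucleotide reductase fell by 1.41 and the salvage kinase Dck by 1.24. Thymidylate synthase, Tyms, was the third: its log2 intensities were 11.52, 11.66, 11.83, 11.59 and 11.86 at 72 h against 11.73, 12.43, 12.32, 11.67 and 11.31 at 36 h, which overlap, and it was not called (difference -0.20 ± 0.15 SE, limma adjusted p = 0.505).

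Checkpoint and fork protection genes fell in 10 of 11 cases, with a median of -1.24, and none rose (background 4.54% lower and 5.37% higher). Chek1, the checkpoint kinase that holds the cell cycle while DNA is copied, had 9.18, 8.62, 8.76, 9.40 and 9.28 at 72 h, against 11.05, 11.59, 11.31, 10.82 and 10.80 at 36 h (difference -2.07 ± 0.14 SE, limma adjusted p = 6.23e-10). Timeless and Tipin, which form the fork protection complex, fell by 1.49 and 1.24. At 72 h Timeless was at 7.03 ± 0.21, against 7.0 in sham livers, and was not called against sham (limma adjusted p = 0.875), while Tipin was still called 0.43 above sham (adjusted p = 0.0031). Of 30 DNA repair genes, 28 fell and none rose, with a median of -0.88. The exonuclease Exo1 fell most, with 8.31, 7.89, 7.95, 8.15 and 8.29 at 72 h against 10.23, 10.82, 10.81, 9.86 and 9.87 at 36 h (difference -2.20 ± 0.17 SE, limma adjusted p = 5.09e-09). The mismatch recognition gene Msh6 fell by 1.46 and Tonsl by 1.2. The repair genes Rad51b and Rtel1 were the exceptions, with -0.07 and 0.02 (limma adjusted p = 0.885 and 0.946).

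All 13 genes of chromatin assembly and repressive chromatin fell (background 4.54% lower), with a median of -1.03. Hells, a chromatin remodeller needed for DNA methylation, fell most of all genes in the cell cycle lists, with log2 intensities of 8.57, 8.01, 8.12, 8.77 and 8.60 at 72 h, against 10.39, 11.02, 11.15, 10.46 and 10.41 at 36 h (difference -2.27 ± 0.16 SE, limma adjusted p = 1.28e-09). Chaf1a, the large subunit of chromatin assembly factor 1, fell by 1.38, the histone chaperone Asf1b by 1.32 and the heterochromatin protein gene Cbx5 by 1.03. Histone genes were split. H1f5, H2ac4 and the repair histone H2ax fell, by 1.12, 0.77 and 0.77, whereas H1f0, the linker histone of resting and differentiated cells, rose to 12.96 ± 0.10 at 72 h, against 12.40 ± 0.06 at 36 h (difference 0.56 ± 0.08 SE, limma adjusted p = 2e-05), with a sham mean of 12.91. H3c8 also passed, at 0.69 ± 0.22 (SE, limma adjusted p = 0.0415), but its arrays overlapped, and it lost the call in 10 of 22 alternative settings. Histone genes have near-identical copies, and which copies the probes detect was not checked.

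Of 9 regulators of the G1 to S switch, 8 fell (background 4.54% lower). Ccne2, cyclin E2, fell most, with arrays that did not overlap, at 9.17, 8.83, 9.13, 9.51 and 9.51 at 72 h against 10.96, 11.75, 11.76, 11.26 and 10.78 at 36 h (difference -2.07 ± 0.21 SE, limma adjusted p = 2.5e-07). E2f1, the transcription factor that drives S phase genes, had 8.84, 8.54, 8.87, 9.19 and 9.13 at 72 h against 9.47, 10.37, 10.22, 9.78 and 9.47 at 36 h (difference -0.94 ± 0.16 SE, limma adjusted p = 0.000322), and Rbl1, the pocket protein p107 that restrains E2F, differed by -0.65 ± 0.13 (SE, limma adjusted p = 0.00157). Skp2, Cdk2 and Cdc25a fell by 1.12, 1.07 and 0.92. The Cdk inhibitor Cdkn1b was the member not called, at 0.03 (limma adjusted p = 0.945).

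The fall left most of these genes above sham livers. Against sham, 12 of 15 origin genes, 15 of 16 DNA synthesis genes, 28 of 30 repair genes and 10 of 13 chromatin genes were still called higher at 72 h (background 15.1% of all probes higher and 13.1% lower), and none was called lower. The median difference from sham of the origin list was 1.24 at 72 h and 2.97 at 36 h, that of the DNA synthesis list 0.91 at 72 h and 2.20 at 36 h, and that of the repair list 0.66 and 1.57, again with 72 h first. These differences share the sham arrays. By array, the mean of the 45 genes of origin licensing, DNA synthesis, deoxynucleotide supply and checkpoint was 9.33, 9.09, 9.18, 9.30 and 9.32 at 72 h, against 10.22, 10.77, 10.71, 10.27 and 10.07 at 36 h, with a sham mean of 8.11. The mice at 72 h lay closer together than those at 36 h (SD 0.10 at 72 h and 0.31 at 36 h, n = 5 each).

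**Figure D1:**
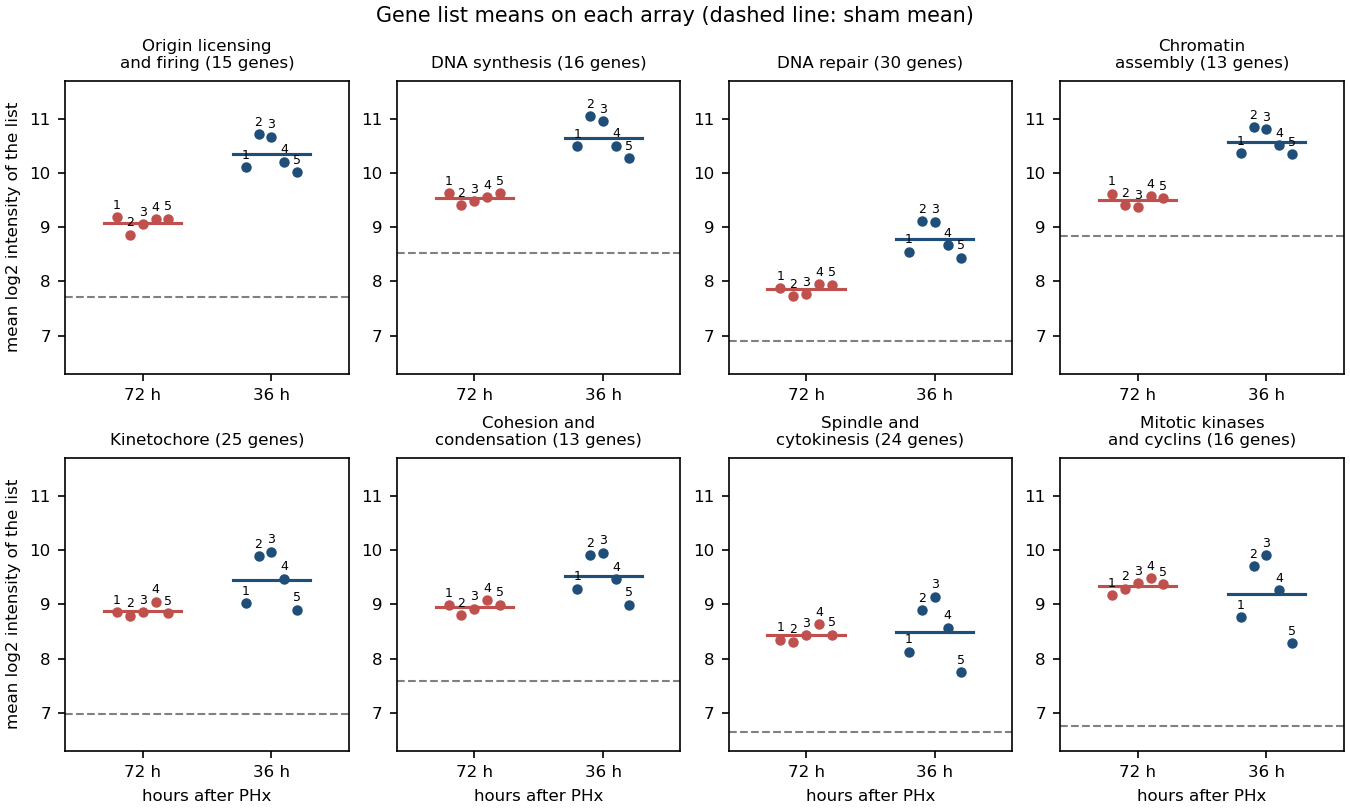
Mean log2 intensity of the genes of 8 lists on each array (y axis), with PHx 72 h (red) left of PHx 36 h (blue), numbers giving the replicate, solid lines the group mean and dashed lines the sham mean. In the upper lists (replication, repair and chromatin) all 72 h arrays lie below all 36 h arrays, and in the lower lists (mitosis) the groups overlap and the 36 h arrays are spread widely.

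Promoters of 4 of the fallen genes are shown here, chosen because they hold E2F-like letters. The 250 bases before the annotated start were taken from RefSeq (mouse build GRCm38.p6) and searched on both strands for TTTCCCGC, TTTCGCGC, TTTGCCGC and TTTGGCGC. Such a site was found in 9 of the 38 promoters at hand of the 45 replication genes (23.7%), in 3 of 13 of the chromatin genes (23.1%) and in 2 of 26 of the repair genes (7.69%), beside 7 of 66 of the mitosis genes (10.6%) and 583 of all 27025 genes of the table (2.16%). With the 50 bases after the start included, a window chosen after seeing the data, the shares were 42.1% of the replication genes and 2.60% of all genes. Base composition was not matched, and a match in letters is a description and not a binding site. Capitals below mark the E2F-like letters in Mcm6 (chr1:128359706-128359955, minus strand), Mcm5 (chr8:75109259-75109508, plus strand), Hells (chr19:38930740-38930989, plus strand) and Dtl (chr1:191575545-191575794, minus strand), each given 5′ to 3′ up to the base before the start.
Mcm6: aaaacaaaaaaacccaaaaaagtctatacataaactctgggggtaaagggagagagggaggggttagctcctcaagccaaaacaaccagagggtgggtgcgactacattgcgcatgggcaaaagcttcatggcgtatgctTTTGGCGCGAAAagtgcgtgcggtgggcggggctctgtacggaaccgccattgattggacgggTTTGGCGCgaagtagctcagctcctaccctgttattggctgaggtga
Mcm5: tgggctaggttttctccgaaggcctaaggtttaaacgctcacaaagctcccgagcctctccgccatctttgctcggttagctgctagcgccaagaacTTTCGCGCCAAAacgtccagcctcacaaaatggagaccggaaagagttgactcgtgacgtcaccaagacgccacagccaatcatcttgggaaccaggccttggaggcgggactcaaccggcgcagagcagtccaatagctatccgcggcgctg
Hells: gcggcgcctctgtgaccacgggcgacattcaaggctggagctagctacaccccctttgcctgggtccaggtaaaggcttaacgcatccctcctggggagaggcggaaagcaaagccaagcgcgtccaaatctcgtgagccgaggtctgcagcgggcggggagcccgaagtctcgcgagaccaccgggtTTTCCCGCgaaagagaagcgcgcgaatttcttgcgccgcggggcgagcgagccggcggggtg
Dtl: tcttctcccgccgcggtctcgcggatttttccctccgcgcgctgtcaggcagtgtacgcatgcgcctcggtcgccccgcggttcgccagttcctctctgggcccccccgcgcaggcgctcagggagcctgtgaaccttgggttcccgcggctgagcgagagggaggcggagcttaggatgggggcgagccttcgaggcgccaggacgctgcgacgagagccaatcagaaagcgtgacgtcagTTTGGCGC
In Mcm6 and Mcm5 a site on one strand overlaps a site on the other, and Mcm6 holds 3 sites in all. Dtl, the receptor of the ubiquitin ligase that removes Cdt1, holds its site 8 bases before the start. Its log2 intensity averaged 8.27 ± 0.25 at 72 h and 10.27 ± 0.24 at 36 h (SD, n = 5 each, difference -2.0 ± 0.14 SE, limma adjusted p = 7.56e-10).

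Mitosis genes were mixed. Of 78 genes in 4 lists, 27 fell and 6 rose (background 4.54% lower and 5.37% higher). In the cohesion and condensation list 9 of 13 fell and 1 rose, with a median of -0.80. In the kinetochore list 11 of 25 fell and 1 rose, with a median of -0.54. In the list of spindle motors, spindle assembly and cytokinesis only 3 of 24 fell and 1 rose, with a median of -0.13. Of 16 mitotic kinases, cyclins and their regulators, 4 fell and 3 rose, with a median of -0.16. Against sham, 74 of the 78 were called higher at 72 h and 3 lower (background 15.1% of all probes higher and 13.1% lower). The median difference from sham was 1.76 at 72 h and 2.20 at 36 h.

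The members that fell include parts of the inner kinetochore, which is built on the centromere throughout the cell cycle. Cenph had log2 intensities of 8.96, 8.72, 8.86, 8.96 and 8.81 at 72 h, against 9.98, 10.87, 10.62, 10.15 and 10.03 at 36 h (difference -1.47 ± 0.15 SE, limma adjusted p = 4e-07). Cenpk and Cenpn of the same layer fell by 1.31 and 1.15, and Dsn1, which links it to the outer kinetochore, by 1.07. Cdca5, the sororin that keeps sister chromatids together after replication, fell by 1.27, and the condensin II subunits Ncapg2 and Ncapd3 by 0.99 and 0.91. Fbxo5, an inhibitor of the anaphase promoting complex, fell by 0.94, with arrays that overlapped, and it lost the call in the fit of the 10 arrays alone (limma adjusted p = 0.0587).

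The members that rose were Cdkn3, Ccnb2, Cdc25c, Pttg1, Kif20a and Cenpa. Cdkn3, a phosphatase that acts on cyclin-dependent kinases, had the largest rise of all named genes, with log2 intensities of 10.62, 11.95, 12.01, 11.89 and 11.77 at 72 h, against 8.25, 8.86, 9.88, 9.05 and 7.34 at 36 h. The groups did not overlap, and the difference was 2.97 ± 0.37 (SE), a 7.84-fold rise (limma, adjusted p = 4.56e-06). Ccnb2, cyclin B2, the partner of Cdk1, had 12.08, 12.61, 12.65, 12.54 and 12.22 at 72 h, against 9.96, 10.80, 11.49, 10.63 and 8.68 at 36 h (difference 2.11 ± 0.36 SE, 4.31-fold, limma adjusted p = 0.000222). All 5 mice at 72 h were above the highest mouse at 36 h, and the lowest mouse at 36 h, replicate 5, was still above the sham mean of 7.43. Pttg1, the securin that holds back separase until anaphase, had 12.34, 12.64, 12.91, 12.59 and 12.26 at 72 h, against 10.63, 11.45, 11.60, 11.15 and 10.02 at 36 h (difference 1.58 ± 0.22 SE, limma adjusted p = 2.46e-05). Cdc25c, the phosphatase that activates Cdk1, rose on both of its probes, by 0.84 and 1.11. Kif20a, a kinesin of cytokinesis, differed by 1.07 ± 0.27 (SE, limma adjusted p = 0.0104) and Cenpa, the histone H3 variant of the centromere, by 0.70 ± 0.20 (SE, adjusted p = 0.0238). The arrays of both overlapped between the groups. Kif20a lost its call in the fit of the 10 arrays alone (limma adjusted p = 0.0658), and Cenpa lost it without replicate 2 or 4 at 72 h or without replicate 1 or 5 at 36 h (limma adjusted p = 0.0533 to 0.0844). A further pair of mitosis genes outside these lists was among the largest rises: Cdca3, a regulator of mitotic entry, averaged 12.53 ± 0.33 at 72 h and 11.12 ± 0.76 at 36 h, and Knstrn, a spindle and kinetochore protein, 10.48 ± 0.25 at 72 h and 9.08 ± 0.72 at 36 h (SD, n = 5 each).

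Ccnb1, cyclin B1, is a close relative of Ccnb2. Its log2 intensities were 9.73, 9.20, 9.29, 9.64 and 9.40 at 72 h, against 8.52, 9.71, 10.28, 9.76 and 7.65 at 36 h. The 36 h mice lay on both sides of the 72 h mice, and Ccnb1 was not called (difference 0.27 ± 0.37 SE, limma adjusted p = 0.774). Taken within each array, Ccnb2 minus Ccnb1 was 2.35, 3.41, 3.35, 2.89 and 2.82 on the log2 scale at 72 h, against 1.43, 1.09, 1.21, 0.88 and 1.03 at 36 h. The means of this measure differed by 1.84 between the times. The pair was chosen after its values had been seen, so this is a description with no test. Aurkb, the kinase of the chromosomal passenger complex, differed by -0.79 ± 0.25 (SE, limma adjusted p = 0.0421), with log2 intensities of 9.89, 9.54, 9.85, 10.13 and 10.04 at 72 h and 10.36, 11.45, 11.42, 10.56 and 9.60 at 36 h that overlap. Its call was lost in 12 of 22 alternative settings, among them the fit of the 10 arrays alone (adjusted p = 0.163).

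In the mitosis genes the 72 h mice lay close together and the 36 h mice were spread. By array, the mean of the 16 mitotic kinases, cyclins and regulators was 9.17, 9.29, 9.39, 9.48 and 9.37 at 72 h (SD 0.12), against 8.76, 9.70, 9.91, 9.26 and 8.28 at 36 h (SD 0.67). Replicate 5 at 36 h was the lowest of its group in 61 of the 78 mitosis genes, and replicate 3 was the highest in 55. In the 45 replication genes, replicate 5 was again lowest in 29, but replicate 2 was the highest in 32 and replicate 3 in 11. At 72 h, replicate 4 was highest in 44 of the 78 mitosis genes, over a much smaller range. The count of mitosis genes that fell moved with these mice: it was 38 without replicate 5 of the 36 h group and 19 without replicate 2 or without replicate 3 of that group. In a fit of the 10 arrays alone it was 17. What set the 36 h mice apart was not tested.

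**Figure D2:**
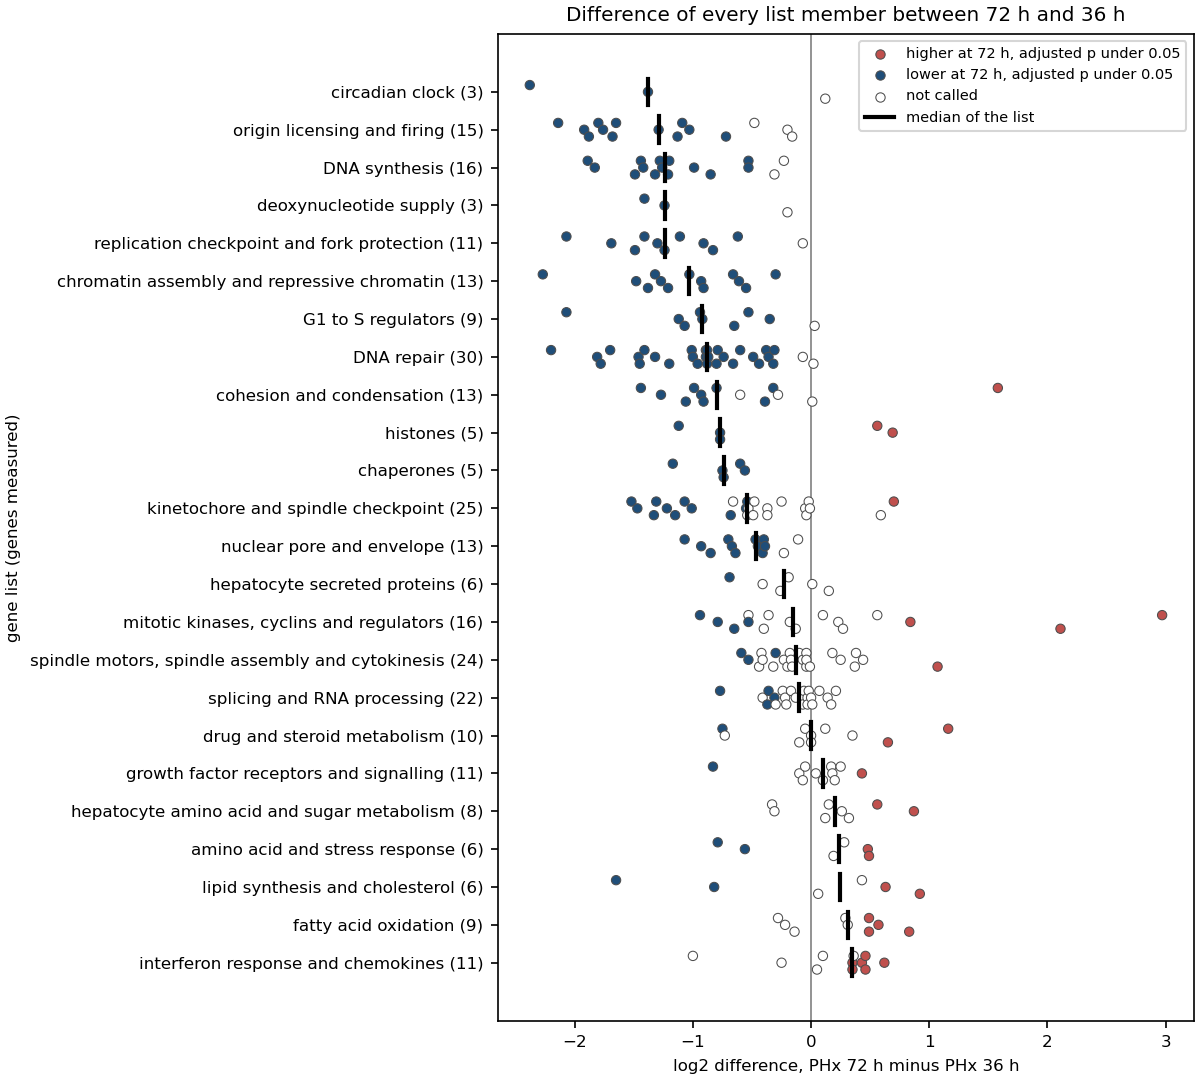
Log2 difference (PHx 72 h minus PHx 36 h, x axis) of every measured member of 24 gene lists (y axis, ordered by median), red where called higher and blue where called lower at 72 h at an adjusted p under 0.05, white where not called, with a black bar at the median. The replication lists lie left of 0 without a member on the right that was called. The medians of the mitosis lists run from -0.80 for cohesion and condensation to -0.13 for the spindle list. A few mitosis genes lie far to the right, with Cdkn3 at 2.97 and Ccnb2 at 2.11 the farthest.

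Promoters of 3 of the risen mitosis genes are shown, chosen because they hold CHR (TTTGAA) or CCAAT letters. Of the risen mitosis genes named above, Ccnb2 and Cdkn3 held both, Cdca3 and Cenpa held CCAAT alone, Pttg1 and Knstrn held neither, and Cdc25c and Kif20a were not analysed here. Over the 66 promoters at hand of the 78 mitosis genes, 33.3% held TTTGAA and 65.2% held CCAAT within 250 bases before the start on either strand, and 24.2% held both, against 18.3%, 37.5% and 7.34% of all 27025 genes. CCAAT was also held by 65.4% of the repair genes, 61.5% of the chromatin genes and 19 of 38 replication genes. Both motifs were held by 7.89% of the replication genes, 7.69% of the chromatin genes and none of the repair genes. With the 50 bases after the start included, 57.6% of the mitosis genes and 20.2% of all genes held TTTGAA. The mitosis list holds genes that rose, fell and were not called, so these shares do not sort them. Capitals mark either motif on either strand in Ccnb2 (chr9:70421555-70421804, minus strand), Cdkn3 (chr14:46760291-46760540, plus strand) and Cdca3 (chr6:124829926-124830175, plus strand), again from RefSeq, build GRCm38.p6, and 5′ to 3′.
Ccnb2: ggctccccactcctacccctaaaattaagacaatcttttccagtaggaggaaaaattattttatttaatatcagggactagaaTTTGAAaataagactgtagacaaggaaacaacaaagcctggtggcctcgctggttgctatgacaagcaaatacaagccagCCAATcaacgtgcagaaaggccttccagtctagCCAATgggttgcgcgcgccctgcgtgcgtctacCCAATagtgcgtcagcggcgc
Cdkn3: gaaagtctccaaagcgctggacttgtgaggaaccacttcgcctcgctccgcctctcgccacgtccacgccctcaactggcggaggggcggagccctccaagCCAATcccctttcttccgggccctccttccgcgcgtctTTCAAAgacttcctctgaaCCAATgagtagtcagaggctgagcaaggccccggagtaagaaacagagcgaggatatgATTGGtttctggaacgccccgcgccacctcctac
Cdca3: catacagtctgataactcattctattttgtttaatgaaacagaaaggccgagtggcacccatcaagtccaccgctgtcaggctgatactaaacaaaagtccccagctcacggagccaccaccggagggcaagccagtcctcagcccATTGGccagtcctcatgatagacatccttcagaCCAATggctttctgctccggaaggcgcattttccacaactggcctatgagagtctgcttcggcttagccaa
Ccnb2 holds 3 CCAAT boxes and 1 TTTGAA in this window, and 1 more TTTGAA, on either strand, lies in the 50 bases after the start. In Cdca3 the window holds CCAAT letters without TTTGAA, and 1 TTTGAA, on either strand, lies in the 50 bases after the start.

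Outside the cell cycle, the largest falls were those of secreted and structural proteins that were high at 12 and 36 hours. Reg3b, a secreted lectin made in injured epithelia, had log2 intensities of 5.64, 6.25, 5.55, 6.24 and 6.09 at 72 h, against 9.31, 12.15, 10.26, 10.39 and 11.42 at 36 h. Its 72 h mean was near background, so the fall was at least 27-fold (difference -4.75 ± 0.37 SE, limma adjusted p = 4.65e-09). Reg3g, its close relative, fell likewise to background, with a difference of -2.84 ± 0.29 (SE) that is a lower bound in size (limma adjusted p = 2.94e-07), and the probes may detect both genes. At 36 h replicate 2 was the highest and replicate 1 the lowest of the 5 mice for both. The probe IVGNm14637, with no gene name at hand, had the largest fall of the probes described here, with 5.74, 6.52, 5.79, 6.29 and 6.34 at 72 h against 9.77, 12.62, 10.96, 10.83 and 12.06 at 36 h, and it also was highest in replicate 2 and lowest in replicate 1. Eln, elastin of the extracellular matrix, fell below sham: it had 7.91, 8.79, 8.21, 7.72 and 7.62 at 72 h, against 11.63, 11.22, 11.12, 10.84 and 11.24 at 36 h (difference -3.16 ± 0.22 SE, 8.93-fold, limma adjusted p = 7.56e-10), with a sham mean of 9.91 and a difference of -1.87 from sham at 72 h (adjusted p = 4.95e-07). Of the other stellate cell and fibroblast markers, Col14a1 and Colec11 rose by 0.45 and 0.60, and Bmp5 and Abi3bp differed by -0.11 and -0.14 (limma adjusted p = 0.765 and 0.586). The mean of the 5 markers was 7.93 to 8.10 per array at 72 h and 8.39 to 8.67 at 36 h, and none was near background. Eln alone of the 5 was called lower and 2 were called higher, so the lower mean at 72 h is not a fall of the list.

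Of 3 clock genes, Cry1 and Arntl fell (background 4.54% lower). Cry1, a repressor of the circadian clock, had 8.40, 8.50, 7.79, 8.37 and 8.24 at 72 h, against 10.76, 10.54, 10.49, 10.73 and 10.67 at 36 h (difference -2.38 ± 0.17 SE, limma adjusted p = 7.11e-10), and Arntl, the clock activator Bmal1, had 8.32, 8.96, 8.03, 8.23 and 8.06 at 72 h against 9.61, 9.48, 9.95, 9.73 and 9.74 at 36 h (difference -1.38 ± 0.19 SE, adjusted p = 2e-05). The groups did not overlap for either. In the order of the course, Cry1 averaged 9.21 in sham livers, 8.93 at 4 h, 10.40 at 12 h, 10.64 at 36 h and 8.26 at 72 h. The 36 h and 12 h livers were taken 24 hours apart and the 72 h and 36 h livers 36 hours apart, so that these times differ by 12 hours on the clock unless surgeries began at different hours. The sources used here do not give the hour of surgery, and hours since PHx and time of day cannot be told apart. Per3, another clock gene, was dim, at 6.22 ± 0.18 at 72 h and 6.10 ± 0.18 at 36 h, and was not called.

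Among the 15 largest rises of named genes, 14 belong to the study's cluster 4, which holds 285 of the 1943 probes at hand. All 15 were called above sham at 72 h (background 15.1% of all probes higher). The study formed its clusters with these very measurements, so both counts are description and no separate line of evidence. Nqo1, a quinone reductase, had 10.41, 10.65, 11.01, 10.99 and 10.87 at 72 h, against 9.80, 9.66, 9.84, 9.40 and 9.46 at 36 h (difference 1.16 ± 0.13 SE, limma adjusted p = 1.03e-06). Ptgr1, which reduces prostaglandins and unsaturated aldehydes, had 10.63, 12.06, 11.90, 11.86 and 11.85 at 72 h against 10, 10.28, 10.38, 10.32 and 10.07 at 36 h (difference 1.45 ± 0.19 SE, adjusted p = 9.95e-06). Gstp3, a pi class glutathione transferase with near-identical relatives, rose by 1.57, and the mitochondrial aldehyde dehydrogenase Aldh1b1 by 1.11. Replicate 1 was the lowest 72 h mouse for all 4 of these genes, and it was also the lowest for Cdkn3 and Ccnb2. Fbxo21, a subunit of a ubiquitin ligase, had 10.20, 9.77, 10.24, 10.11 and 10.06 at 72 h, against 8.09, 8.11, 8.22, 8.13 and 8.09 at 36 h (difference 1.95 ± 0.17 SE, limma adjusted p = 3.06e-08), with 9.08 in sham livers. Fbxo21 thus was below sham at 36 h and above it at 72 h. Serpinb8, an inhibitor of serine proteases, rose by 1.76, the imprinted gene Mest by 1.62, the glutamate receptor subunit Gria3 by 1.24, Olfml1 by 1.28 and Atp6v0d2, a subunit of the vacuolar proton pump, by 1.12.

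**Figure D3:**
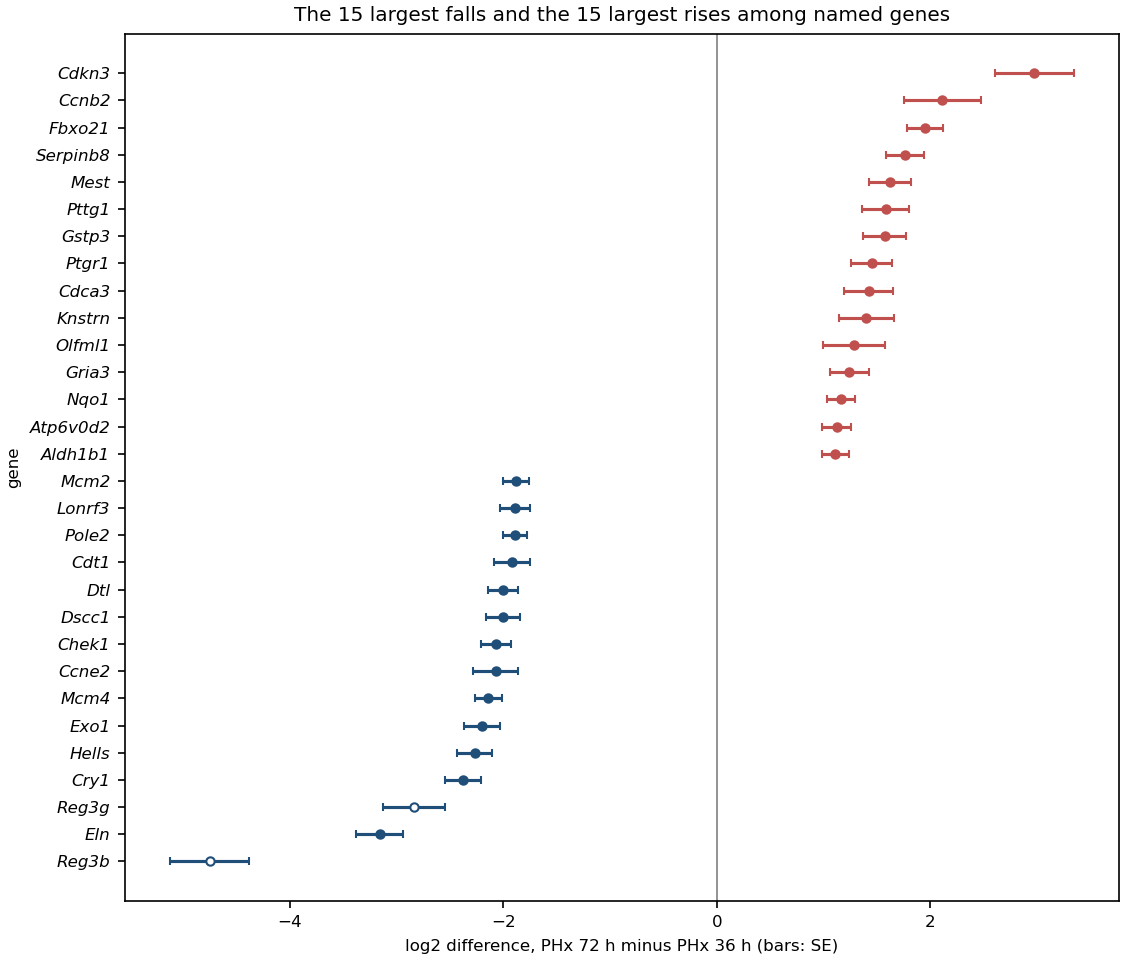
Log2 difference (PHx 72 h minus PHx 36 h, x axis, bars SE) of the 15 named genes with the largest rise (red) and the 15 with the largest fall (blue), each with arrays that do not overlap between the times (open points are lower bounds, since the 72 h mean was near background). The rises run from 1.11 for Aldh1b1 to 2.97 for Cdkn3, and the falls from -1.88 for Mcm2 to -4.75 for Reg3b.

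A part of the genes of hepatocyte metabolism passed the test in this step, in both directions (background 5.37% higher and 4.54% lower). Of 10 genes of drug and steroid metabolism, Nqo1 and Cyp17a1 rose and Cyp2b19 fell, and the last 2 calls were lost in several alternative settings. The median difference of the list was 0.00, while 9 of the 10 were called below sham at 72 h (background 13.1% lower). In fatty acid oxidation 4 of 9 genes rose and none fell (background 5.37% higher), with a median of 0.31. Of these, Acad10 and Abcd2 lost the call without replicate 3 at 36 h (limma adjusted p = 0.056 and 0.085). Cpt1a, the carnitine transferase that admits fatty acids into mitochondria, had 13.24, 12.79, 13.12, 13.25 and 13.48 at 72 h, against 12.76, 12.66, 12.40, 12.43 and 12.76 at 36 h (difference 0.57 ± 0.12 SE, limma adjusted p = 0.00158), and remained 1.04 below the sham mean of 14.21. Acad9 rose by 0.49 and Acad10 by 0.49, whereas Abcd2, a peroxisomal transporter, rose by 0.83 with arrays that overlapped. Of the amino acid and sugar genes, Pck2 rose by 0.87 and Pcca by 0.56, and the other 6 were not called.

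In lipid synthesis, Insig2, which holds the sterol sensor of the cell in the endoplasmic reticulum, had 10.99, 11.38, 10.84, 11.51 and 10.72 at 72 h, against 12.11, 12.38, 12.96, 13.44 and 12.78 at 36 h (difference -1.65 ± 0.25 SE, limma adjusted p = 7.56e-05). Scd2 fell by 0.82, while Lss, an enzyme of cholesterol synthesis, rose by 0.92 and Npc1, which moves cholesterol out of lysosomes, by 0.63, on the brighter of its probes. Its other probe differed by 0.19 and was not called (limma adjusted p = 0.678). Of 6 secreted hepatocyte proteins only Crp, C-reactive protein, passed, with 14.59, 14.67, 14.10, 14.11 and 14.12 at 72 h against 15.12, 15.10, 14.80, 14.95 and 15.08 at 36 h (difference -0.69 ± 0.13 SE, adjusted p = 0.000477).

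Interferon response genes were higher at 72 h in 6 of 11 cases, and none was lower, with a median of 0.35 (background 5.37% higher and 4.54% lower, as for each list in this paragraph). The largest was Cmpk2, with 7.81, 8.55, 8.28, 8.38 and 8.73 at 72 h against 7.77, 7.53, 7.62, 7.74 and 7.98 at 36 h (difference 0.62 ± 0.15 SE, limma adjusted p = 0.00554), and Nmi, Tap1 and Parp14 rose by 0.46, 0.43 and 0.35. Cmpk2 and Tap1 lost the call in the methods' t-test (adjusted p = 0.0798 and 0.0706). Of the 6 rises, 2 had arrays that did not overlap. By array, the mean of the 11 genes was 9.23, 9.62, 9.52, 9.45 and 9.56 at 72 h. At 36 h it was 9.65, 9.21, 9.12, 9.22 and 9.32, so the groups overlap. Replicate 1 was the lowest 72 h mouse in 9 of the 11 genes. The chemokines Cxcl1 and Cxcl10 in this list differed by -1.0 and -0.25 and were not called (adjusted p = 0.114 and 0.265). Chaperones fell in 5 of 5 cases, by 0.56 for the brightest, Hsp90ab1, to 1.17 for Dnajc9, and 11 of 13 nuclear pore and envelope genes fell, Tmpo most, by 1.07. Among growth factor receptors, the hepatocyte growth factor receptor Met (0.20) and the epidermal growth factor receptor Egfr (0.04) were not called (limma adjusted p = 0.504 and 0.93). In splicing and RNA processing 4 of 22 genes fell, Srsf7 most, by 0.77, and 18 were not called. Among the 1943 probes at hand, from which the lists were drawn, 489 fell, so this share is not a raised one. Sesn1 and Chac1 rose in the amino acid and stress response list, by 0.48 and 0.49, and Mthfd2 and Slc1a4 fell, by 0.79 and 0.56. The other probe of Slc1a4 differed by -0.30 and was not called (limma adjusted p = 0.0516).

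**Figure D4:**
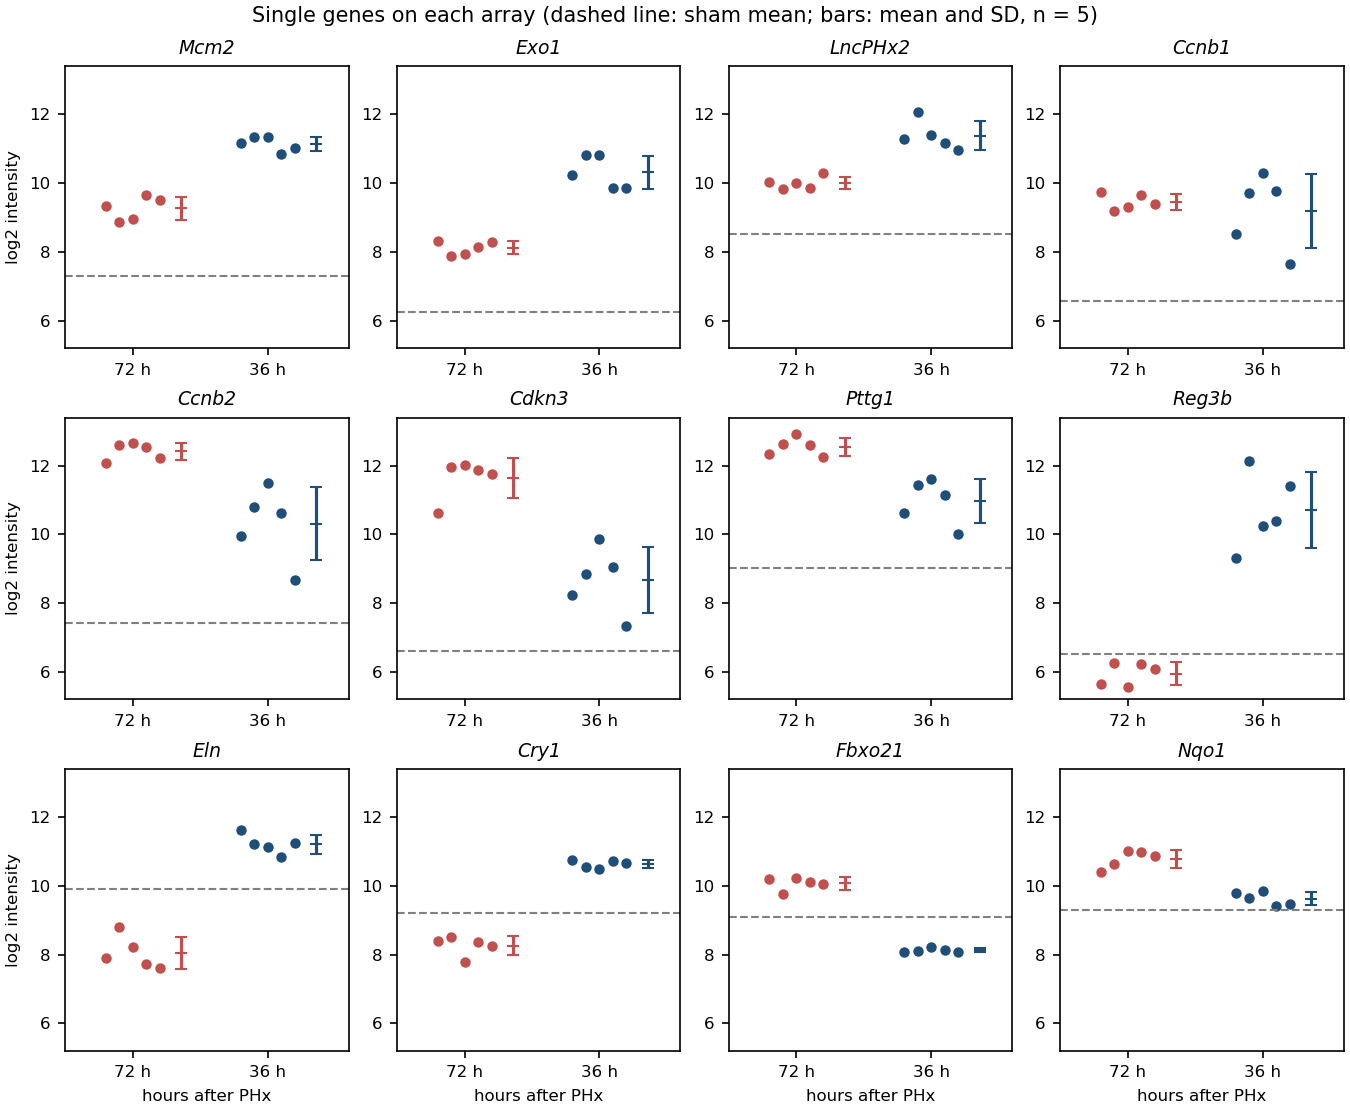
Log2 intensity (y axis) of 12 genes on each of the 5 arrays at PHx 72 h (red, left) and at PHx 36 h (blue, right), with the mean and SD beside them and the sham mean as a dashed line. The groups overlap for Ccnb1 alone, and Reg3b at 72 h is at or below a log2 intensity of 6.25. Reg3b, Eln and Cry1 at 72 h lie below sham, and of these Reg3b was not called against sham (limma adjusted p = 0.298).

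Of 224 putative lncRNA probes at hand, all from clusters 1 to 3, 40 fell and 12 rose (background 4.54% lower and 5.37% higher). Of the 40, 25 were among the 30 lncRNA probes of cluster 1, where none rose. In cluster 2, 8 of 91 rose and 8 fell, and in cluster 3, 4 of 110 rose and 9 fell. The lncRNAs of cluster 4 and of later clusters were not analysed here, so these counts give no balance of lncRNAs as a whole. The lncRNA that the study named LncPHx2 fell, with 10.03, 9.82, 10.01, 9.86 and 10.29 at 72 h, against 11.28, 12.07, 11.41, 11.17 and 10.95 at 36 h (difference -1.38 ± 0.24 SE, 2.6-fold, limma adjusted p = 0.000277). The arrays did not overlap, replicate 2 at 36 h was the highest, and at 72 h it was still 1.5 above its sham mean of 8.51 (adjusted p = 2.61e-05). AK021390, which the study's table lists under Hells, fell by 1.81 and AK005849 by 1.59. AK043270 fell by 1.04, to 9.22 ± 0.16 at 72 h against 10.26 ± 0.29 at 36 h, beside a sham mean of 9.19. Of 6 probes listed under Malat1, an abundant nuclear RNA, 5 fell, by 0.73 to 1.15, and the dimmest, AK090111, differed by -0.35 (limma adjusted p = 0.118). Among those that fell, AK019083, AK020134 and AK141413 had arrays that overlapped between the times. AK019083, with the largest fall, lost the call in the methods' t-test (adjusted p = 0.0599). Replicate 4 was the highest 36 h mouse on all 6 probes. The brightest of them, AK020134, averaged 12.85 at 72 h and 13.79 at 36 h. The 5 largest rises among these probes were 0.73 for AA207719, 0.69 for IVGNm34599, 0.64 for BC025841, 0.57 for AK160158 and 0.52 for AK017289. On which strand these probes lie was not checked, so a noncoding RNA and the gene it is listed under cannot be told apart.

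Some of the largest differences lie on probes without a name at hand. IVGNm33685 had 10.25, 10.11, 10.29, 9.20 and 9.50 at 72 h, against 6.09, 6.05, 5.80, 5.92 and 6.12 at 36 h, a rise of at least 14.7-fold, since its 36 h mean was near background (limma adjusted p = 1.38e-11). IVGNm05845 had 12.29, 11.92, 12.57, 12.26 and 12.53 at 72 h, against 8.87, 8.83, 8.47, 8.25 and 8.69 at 36 h (difference 3.69 ± 0.22 SE, adjusted p = 1.45e-10). Their means were 6.02 and 8.60 at 12 h and 7.98 and 11.34 in sham livers. IVGNm24051 fell by 2.72 to a mean of 10.05 ± 0.57 at 72 h, against 12.77 ± 0.80 at 36 h.

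Probes that moved in this step lay on both sides of sham. Of the 1933 probes higher at 72 h than at 36 h, 1126 were called above sham at 72 h, 153 below it and 654 neither. Of the 1634 lower probes, 506 were still above sham, 468 were below it and 660 were neither. Over all probes, 15.1% were called above sham at 72 h and 13.1% below it. Both calls use the same 72 h arrays, so a probe high or low on these arrays tends to be called in both. These counts are therefore description. In the study's cluster 1, 369 of 431 probes fell and none rose (background 4.54% lower and 5.37% higher). In cluster 2, 53 of 562 rose and 42 fell, with a median difference of 0.00, and in cluster 3, 60 of 720 rose and 35 fell, with a median of 0.01. Of the 285 probes of cluster 4 that were at hand, which are not the whole cluster, 72 rose and 49 fell.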

How the data were processed

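Total RNA of 25 livers was measured on single-colour arrays, 1 per mouse. The deposited table gives linear intensities, which the authors normalized (their methods name vsn, while the values are on a linear scale), and the scanner values were not used here. Of 35981 rows, 2 blank ones were left out. Log2 intensities of 35979 probes were fitted with limma 3.58.1 (R 4.3.3), 1 mean per group over all 25 arrays, and PHx 72 h minus PHx 36 h was tested with Benjamini-Hochberg adjustment at 0.05. Intensities carry no read depth, and each group mean rests on 5 arrays. The spread behind each SE and p-value was pooled over all 25 arrays, so it can understate a spread that is larger at 36 h. In the mitosis genes the median SD was 0.58 at 36 h, 0.16 at 72 h and 0.20 in sham livers. Same-group arrays come from separate mice by the labels' numbering only, so p-values measure the spread between these samples. Slide and scan date are not given in the sources used here.

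Gene names came from the study's supplementary list of clustered probes, of which 1943 probes were at hand, and were updated through RefSeq. For a gene with several probes the one with the highest mean was used. Named were the 15 largest rises and falls with arrays apart and 5 lncRNAs each way. Of each list, up to 4 called genes with the smallest p in limma were picked, and the called genes that moved against their list. Members and lists were chosen with earlier results of these data known. Genes outside that rule were chosen after their values were seen. Python 3.11.15 and pandas 2.3.3 were used for the summaries. Alternatives were other scalings, background offsets, filters, variance settings, array weights, the probe with the lowest mean, a replicate block, the methods' t-test and leaving out each array in turn. A few genes are not reported here.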

Additional observations from a re-analysis of the deposited data

Results flagged for a closer look

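In 10 of 316 groups of 5 arrays, 1 array lay farther from the rest than the limit of Dixon's test allows. Chance flags about 1 in 20 such groups. Replicate 1 at 72 h was the lowest for Cdkn3 (10.62, the next 11.77), Ptgr1 (10.63, the next 11.85) and Cdc25a (8.09, the next 8.35), and the highest for Pola1 (8.39, the next 8.27) and for the mean of the hepatocyte markers (13.79, the next 13.56). Replicate 4 at 72 h was the highest for the mean of the kinetochore list (9.05, the next 8.85) and replicate 3 at 72 h for the mean of the lymphocyte markers (7.08, the next 6.85). At 36 h, replicate 3 was the lowest for Cyp2b19 (8.16, the next 9.04), replicate 4 the highest for Scd2 (10.32, the next 9.79) and replicate 1 the highest for Sesn1 (9.36, the next 9.17). All values are log2 intensities. No explanation of these arrays was tested.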

How the results depend on the processing

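Of 126 called genes and probes described by name, 24 lost the call in at least 1 of 22 alternatives and none turned its direction. Leaving out 1 array was enough to lose the call of Aurkb, H3c8, H2ac4, Cenpa, Kif15, Gtse1, Cyp2b19, Cyp17a1, Acad10, Abcd2, Slc1a4, Chac1 and Erbb3 (limma adjusted p of 0.0523 to 0.173 where lost). With the methods' t-test after Benjamini-Hochberg adjustment, 1360 probes were higher and 1080 lower, and at an unadjusted p under 0.05 it gave 3752 and 3394. It called 13 mitosis genes lower, and the fit of the 10 arrays alone called 17, against 27. Leaving out 1 array at a time gave 1460 to 1991 probes higher, 1249 to 1835 lower, 38 to 41 replication genes lower with 0 higher, and 19 to 38 mitosis genes lower with 5 to 9 higher. With the replicate number as a block, 1903 probes were higher and 1595 lower, with 39 replication genes lower, 25 mitosis genes lower and 6 higher. Deviations of same-numbered arrays correlated at 0.058, 0.003, 0.125, 0.46 and -0.071, in the order of the replicate numbers, and 1 array correlated best with its own number. Replicate 4 had the highest of these values. Whether same-numbered samples share a slide or batch cannot be told from them, since slide and scan date are not given. Signal limits the dim probes: of 9886 with both means near background, 5 were called.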
